A study of Mus musculus with 16 samples.

Results

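Expression of 9 genes of surgical stress was followed in the left ventricle of PKM2fl/fl and PKM2-/- mice. They were 2 metallothioneins (*Mt1* and *Mt2*), 4 acute phase and iron proteins (*Lcn2*, *Saa3*, *Hp* and *Cp*) and 3 targets of glucocorticoids (*Fkbp5*, *Tsc22d3* and *Zbtb16*). The members were taken by symbol from a table of 55492 genes. All 9 were listed, and all 9 had a mean normalized count of at least 10, as did 20576 genes in all, which were the genes tested.

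RNA was sequenced from 16 hearts of male C57BL/6 mice between 8 and 12 weeks of age, each library coming from its own mouse. Of either genotype, 2 mice were left unoperated (baseline), 3 underwent sham surgery and 3 underwent permanent ligation of the left anterior descending coronary artery (myocardial infarction, MI), and operated hearts were taken on day 3. PKM2-/- mice lack exon 10 of *Pkm*, the exon that is spliced into PKM2, in all tissues, after a germline deletion with CMV-driven Cre that was later bred out, and PKM2fl/fl controls carry the floxed allele. Sham mice differ from baseline mice in the anaesthesia and handling of the operation, in the wound and in recovery. These cannot be told apart, because sham operated mice had all of them and baseline mice had no operation. The paper states that isoflurane was given before mice were killed, so anaesthesia at the end was not particular to operated mice. Values are normalized read counts, that is, reads per gene divided by a scaling factor for the library, and they are not corrected for gene length, so levels were compared between libraries and not between genes. Libraries held 20623769 to 71855101 reads. *Pkm*, counted with both isoforms together and therefore no check of the deletion, had 7779 to 9602 normalized counts in PKM2fl/fl hearts at baseline and after sham surgery, and 11710 to 14242 in the PKM2-/- hearts, whereas after MI the genotypes overlapped (9576 to 12076 and 10120.2 to 16113). An rRNA locus (CT010467.1) took 0.111 to 1.39% of the reads in those PKM2fl/fl libraries, 4.14 to 15.01% in the matching PKM2-/- libraries and 1.72 to 25.1% in the libraries after MI. Its part in the results was not tested beyond a fit with its level as a covariate. In that fit the same 8 members passed in sham against baseline over both genotypes. *Saa3* no longer passed there in sham against baseline of PKM2-/- hearts or in MI against sham of PKM2fl/fl hearts. *Tsc22d3* no longer passed between the genotypes after MI.

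Metallothioneins are small cysteine-rich proteins that bind zinc and copper. Their genes are switched on by the zinc-sensing factor MTF-1, which binds metal response elements before the start of transcription, and also by glucocorticoids and inflammatory cytokines. Acute phase proteins are secreted after tissue injury, for the most part by the liver, under the cytokines IL-6 and IL-1 and the C/EBP and STAT factors. Glucocorticoids are released during surgery and bind the glucocorticoid receptor, which acts on target genes that both dampen inflammation and restrain the receptor itself.

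The members lie on 7 chromosomes of the GRCm38.p6 build. *Mt2* (chr8:94172618-94173567) and *Mt1* (chr8:94178883-94180327) are neighbours on the forward strand, *Hp* is on the same chromosome (chr8:109575128-109579172), and the others are *Lcn2* (chr2:32384637-32387739), *Cp* (chr3:19956933-20009750), *Saa3* (chr7:46711998-46719615), *Zbtb16* (chr9:48651797-48836225), *Fkbp5* (chr17:28398753-28486149) and *Tsc22d3* (chrX:140539528-140600522). RefSeq start windows were at hand for 7 of the 9 genes, as 10 windows. The sequences shown here are stretches before the starts of members that rose after sham surgery, chosen because they hold the response elements named above. Each is written from 5′ to 3′ on the gene's own strand, with the matched letters in capitals. The first is the 160 bases before the start of *Mt2* (chr8:94172458-94172617, forward strand) with 2 metal response element cores, and the second the same stretch of *Lcn2* (chr2:32387740-32387899, reverse strand) with a glucocorticoid response element core. The 30-base stretches that follow hold the metal response element core of *Mt1* (chr8:94179054-94179083, forward strand) and the C/EBP sites of *Saa3* (chr7:46715757-46715786, reverse strand) and *Lcn2* (chr2:32387937-32387966, reverse strand). The stretches of *Mt1* and *Saa3* lie inside the RefSeq span of their own gene, before the start of a shorter transcript, and those of *Mt2* and *Lcn2* lie outside it.
Mt2 upstream: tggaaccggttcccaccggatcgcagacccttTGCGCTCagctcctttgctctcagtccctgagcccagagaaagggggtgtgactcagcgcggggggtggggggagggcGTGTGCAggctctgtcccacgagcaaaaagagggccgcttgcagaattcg
Lcn2 upstream: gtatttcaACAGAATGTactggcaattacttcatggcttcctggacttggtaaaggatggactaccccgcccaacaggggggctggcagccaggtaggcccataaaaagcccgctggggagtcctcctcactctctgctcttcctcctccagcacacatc
Mt1 site: gcggtcccgctgTGCACACtggcgctccag
Saa3 site: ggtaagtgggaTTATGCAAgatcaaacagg
Lcn2 site: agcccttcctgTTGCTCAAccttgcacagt
The letters searched, on both strands of the 250 bases before each start, were TGCACNC or TGCGCNC for the metal response element core, ACANNNTGT for the glucocorticoid response element core, the site TTGCNNAA for C/EBP and TTCNNNGAA for STAT. The metal response element core stood in 21.4% of all 32851 RefSeq windows, and 3 or more of them in 1.26%. *Mt2* had 3, which began 223, 128 and 50 bases before its start, and *Mt1* had 1, 23 bases before. The windows of *Mt1* and *Saa3* stand before the start of a shorter transcript. Most (*Mt1*) or all (*Saa3*) of the stretch before the first base of the gene was therefore not searched. The counts of *Mt2* and *Mt1* cannot be compared for that reason. The glucocorticoid core was in 5.84% of windows and was met at *Lcn2* (152 bases before the start) and *Mt1* (92 bases before), but in none of the windows of *Fkbp5* and *Tsc22d3*. C/EBP letters were in 9.56% of windows and in those of *Lcn2*, *Saa3*, *Mt2* and 1 of 2 starts of *Cp*. STAT letters were in 7.02% and, among the members, at 1 of 3 starts of *Tsc22d3*. A match is a run of letters and not a shown binding site, and a window without one says nothing about the factor.

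To ask what surgery alone did to these genes, sham hearts were compared with baseline hearts over both genotypes. Of the 9 members, 8 rose (an adjusted p under 0.05 in limma, Benjamini-Hochberg), where 4.52% of all genes tested rose. Of these, 5 (*Mt2*, *Lcn2*, *Saa3*, *Hp* and *Fkbp5*) rose by at least 2-fold, as did 2.06% of genes. The median log2 fold change of the members was 1.52, beside 0.02 for all genes tested. The members, and the gene lists below, were chosen with earlier results of these data known. The shares of all genes are therefore given as a scale and are no test of enrichment. All 6 sham hearts were above all 4 baseline hearts for 6 members (all but *Lcn2*, *Cp* and *Zbtb16*), as for 4.2% of genes. *Zbtb16* was the member that did not pass (log2 fold change 0.67, adjusted p = 0.0542). Without the first PKM2fl/fl baseline heart, which was the lowest of the 4 for 7 of the members, 3 of 9 passed (*Saa3*, *Hp* and *Tsc22d3*).

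**Figure D1:**
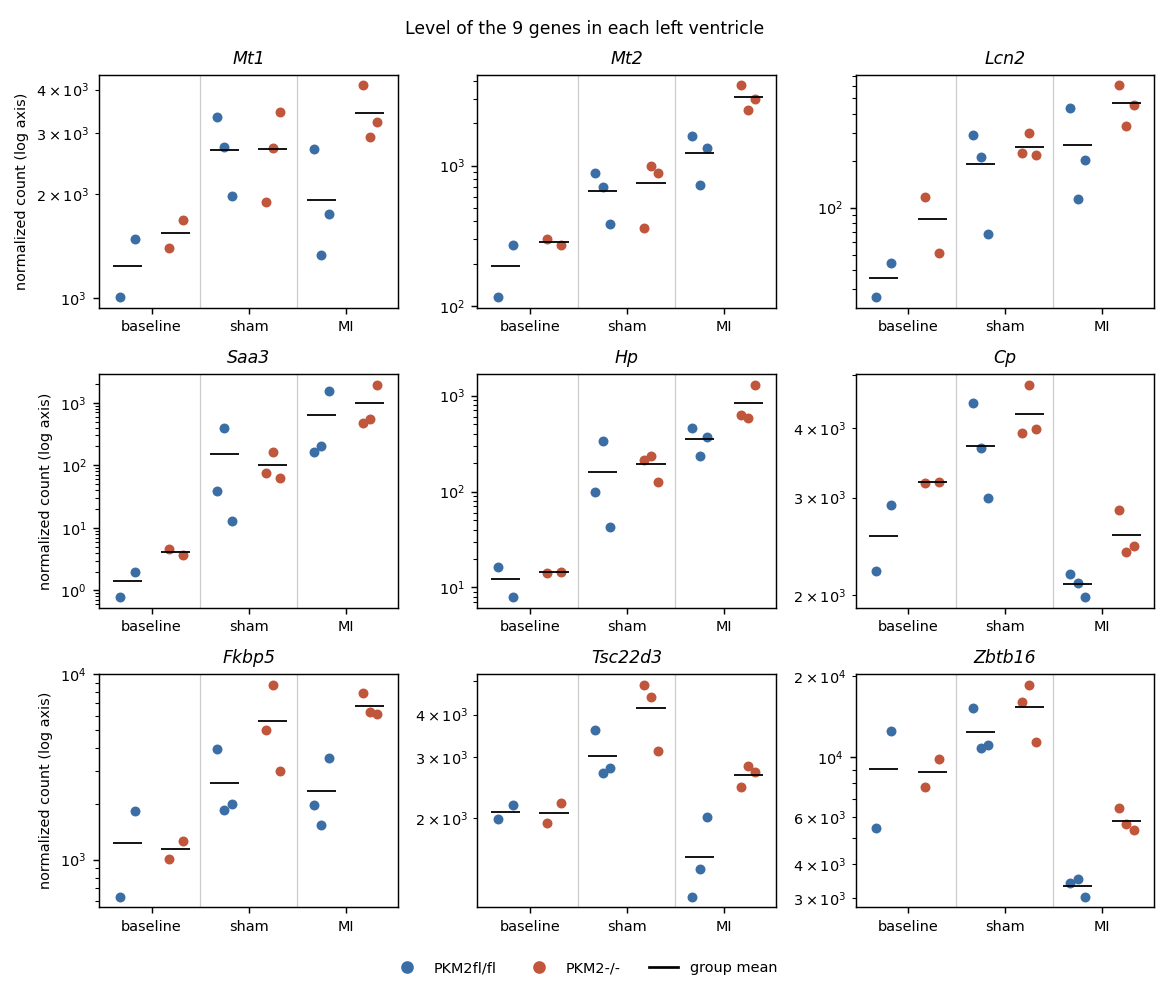
Normalized count of each gene (log axis, a panel per gene) in every left ventricle, by treatment, with PKM2fl/fl in blue, PKM2-/- in red and a black line at the group mean (n = 2 at baseline, n = 3 after sham surgery and MI). Saa3 lies between 0.785 and 4.66 at baseline and between 12.7 and 397 after sham surgery, and Zbtb16 falls to 3035 to 6450 after MI.

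The metallothioneins both rose. *Mt1* had 1008 and 1480.2 normalized counts in PKM2fl/fl and 1399.8 and 1688 in PKM2-/- hearts at baseline, against 3332, 2731 and 1973 in PKM2fl/fl and 1900.2, 2709 and 3456 in PKM2-/- hearts after sham surgery. The sham hearts of either genotype lay above every baseline heart, the lowest by a small margin, and the change was 1.91-fold (log2 fold change 0.93, standard error 0.21, adjusted p = 0.0154). *Mt2* had 115 and 271 in PKM2fl/fl and 302 and 273 in PKM2-/- hearts at baseline, and 879, 704 and 384 in PKM2fl/fl and 359, 995 and 891 in PKM2-/- hearts after sham surgery. No sham heart fell within the baseline range, although the third PKM2fl/fl and the first PKM2-/- sham heart came close to it, and the rise was 2.88-fold (log2 fold change 1.52, standard error 0.33, adjusted p = 0.0109). *Mt1* and *Mt2* are close paralogs, so reads may have been split between them in a way that the counts do not show. Of the other metallothioneins, *Mt3* was below the filter (at most 17.0 normalized counts in any heart) and *Mt4* was listed at 0 reads in all 16 libraries.

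The *Mt2* value carries a further limit. In GENCODE, 783 of the 950 exonic bases of *Mt2* (82.4%) are also exon of *Gm45774*, a non-coding gene on the opposite strand, and the library kit does not mark strand, so reads on the shared bases cannot be assigned to one or the other. *Gm45774* had 93.4 to 221 normalized counts at baseline, 265 to 752 after sham surgery and 568 to 2822 after MI, and it was the gene most like *Mt2* over the 16 libraries (Pearson r = 0.998 on the log2 scale). With the counts of both genes summed, a comparison added after the data were seen, the changes were 1.53 for sham against baseline (adjusted p = 0.0113) and 1.55 for MI against sham (adjusted p = 0.00026). *Gm45774* alone changed by 1.53 and 1.57, so the sum could not differ much and does not tell the genes apart. Whether reads on the shared bases were counted for both genes is not known, so the sum may hold repeated reads. In the map of the locus, the long exon of *Gm45774* covers the start of *Mt2* and most of its exons.

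**Figure D2:**
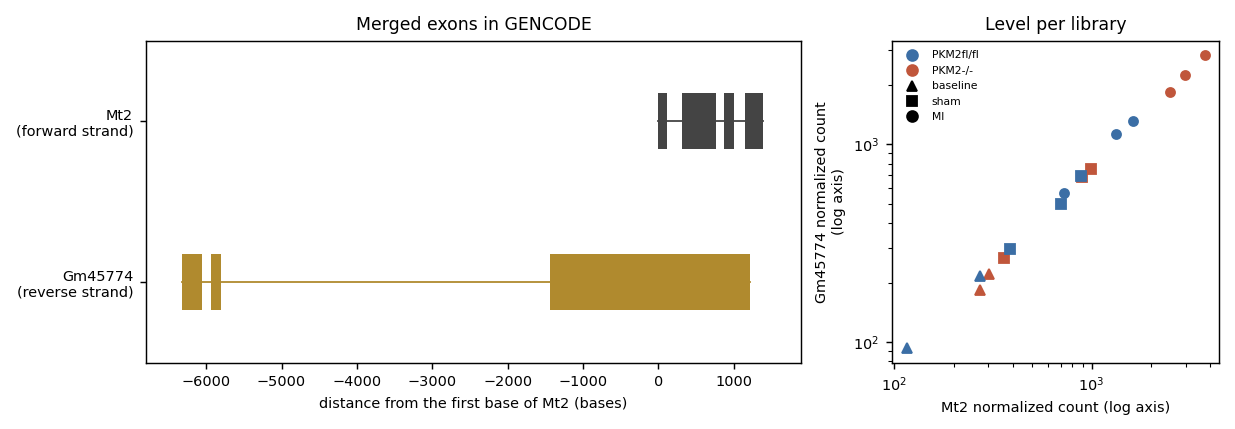
Left, merged exons of Mt2 and of the antisense gene Gm45774 (bars) by distance in bases from the first base of Mt2, in GENCODE. Right, normalized counts of both genes in each of the 16 libraries (log axes, colour for genotype, shape for treatment), which rise together from the baseline hearts to the PKM2-/- MI hearts.

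Among the acute phase genes, *Saa3* and *Hp* showed the largest changes of the 9. *Saa3* encodes a serum amyloid A that is made outside the liver. It had 1 to 4 reads per library at baseline, which were 0.785 and 1.99 normalized counts in PKM2fl/fl and 4.66 and 3.67 in PKM2-/- hearts. After sham surgery it had 38.2, 397 and 12.7 in PKM2fl/fl and 74.0, 162 and 62.6 in PKM2-/- hearts. All sham hearts were above baseline, but they were spread widely in the PKM2fl/fl group. The fitted change was 4.43 on the log2 scale (standard error 0.80, adjusted p = 0.00409). Since the baseline rests on 10 reads in all, the pooled reads give a 42.0-fold ratio with an exact 95% interval of 22.7 to 88.0, which covers counting error only. The second PKM2fl/fl sham heart held 387 of the 706 sham reads, and without it the ratio was 22-fold (11.8 to 46.4) and the fitted change 3.74 (adjusted p = 0.00432). *Saa1*, *Saa2* and *Saa4*, the other serum amyloid genes, had 6, 4 and 3 reads in all libraries together.

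*Hp* encodes haptoglobin, which binds free haemoglobin, and it is also stored in neutrophil granules. It had 16.5 and 7.96 normalized counts in PKM2fl/fl and 14.0 and 14.7 in PKM2-/- baseline hearts, against 99.3, 337 and 42.2 in PKM2fl/fl and 214, 235 and 125 in PKM2-/- hearts after sham surgery. The groups did not overlap, and *Hp* rose 10.5-fold (log2 fold change 3.39, standard error 0.44, adjusted p = 0.000551). *Lcn2* encodes lipocalin-2, which binds bacterial siderophores that carry iron and is likewise a neutrophil granule protein. It had 26.7 and 44.5 in PKM2fl/fl and 118 and 51.3 in PKM2-/- hearts at baseline, and 290.2, 209 and 68.1 in PKM2fl/fl and 223, 299 and 216 in PKM2-/- hearts after sham surgery. The third PKM2fl/fl sham heart lay below the first PKM2-/- baseline heart, so the groups overlapped, and the rise was 3.76-fold (log2 fold change 1.91, standard error 0.41, adjusted p = 0.0106). *Cp* encodes ceruloplasmin, a copper-carrying ferroxidase, and it moved least: it had 2217 and 2909.9 in PKM2fl/fl and 3195 and 3201 in PKM2-/- hearts at baseline and 4446, 3693 and 2995 in PKM2fl/fl and 3929, 4793 and 3990.4 in PKM2-/- hearts after sham surgery, a 1.38-fold rise (log2 fold change 0.46, standard error 0.11, adjusted p = 0.0196). The *Cp* call was lost when libraries were scaled to their total reads (log2 fold change 0.55, adjusted p = 0.365).

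Of the glucocorticoid targets, *Fkbp5* and *Tsc22d3* rose. *Fkbp5* encodes a co-chaperone that lowers the affinity of the glucocorticoid receptor for its hormone. It had 632 and 1840.4 normalized counts in PKM2fl/fl and 1012 and 1264 in PKM2-/- hearts at baseline, and 3963, 1855 and 2009 in PKM2fl/fl and 4982, 8822 and 3025 in PKM2-/- hearts after sham surgery. The 3 PKM2-/- sham hearts stood clear of baseline, whereas the second PKM2fl/fl baseline heart was just under the lowest PKM2fl/fl sham heart. Over both genotypes *Fkbp5* rose 3.20-fold (log2 fold change 1.68, standard error 0.34, adjusted p = 0.00776). *Tsc22d3* encodes GILZ, a leucine zipper protein that carries out anti-inflammatory effects of glucocorticoids. It went from 1984 and 2183 to 3605, 2708 and 2792 in PKM2fl/fl and from 1936 and 2206 to 4892, 4512 and 3135 in PKM2-/- hearts, with no overlap, a 1.69-fold rise (log2 fold change 0.76, standard error 0.15, adjusted p = 0.00640). *Zbtb16* encodes the zinc finger factor PLZF. It had 5463 and 12548 in PKM2fl/fl and 7740.1 and 9874 in PKM2-/- hearts at baseline, and 15249.7, 10848 and 11088 in PKM2fl/fl and 16059, 18615 and 11391 in PKM2-/- hearts after sham surgery. The baseline PKM2fl/fl hearts differed from each other by more than the groups did, and *Zbtb16* passed with DESeq2 (log2 fold change 0.63, adjusted p = 0.0202) but not with limma.

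Within each genotype all 9 estimates were again higher after sham surgery, and fewer passed. In PKM2-/- hearts, *Saa3*, *Hp*, *Fkbp5* and *Tsc22d3* rose (4 of 9, where 3.48% of genes rose), and all 9 members had every sham heart above both baseline hearts, as did 18.4% of genes. With either of the baseline hearts left out 1 passed (*Hp*), without the second sham heart 2 (*Hp* and *Tsc22d3*), and *Saa3* did not pass with edgeR (adjusted p = 0.314). The *Saa3* call in PKM2-/- hearts stood near the threshold (limma, adjusted p = 0.0457). It was also lost without a filter (adjusted p = 0.0684), with a pseudocount of 5 (0.0831) and with the rRNA covariate (0.0583). A replicate block (0.0675) or leaving out any 1 of the 3 PKM2-/- sham hearts (0.0642 to 0.125) removed it too. In PKM2fl/fl hearts 8 members (all but *Zbtb16*) had every sham heart above both baseline hearts, as did 17.4% of genes, but 0 of 9 passed with limma (0.165% of genes rose), although 8 had an unadjusted p under 0.05. The smallest adjusted p was that of *Hp* (3.18, adjusted p = 0.0556). edgeR also called 0 members there and DESeq2 called 4 (*Mt1*, *Mt2*, *Lcn2* and *Hp*). DESeq2 gave no adjusted p for *Saa3*, so its counts of members, here and below, leave that gene out. Without the third PKM2fl/fl sham heart 5 passed, and without the third PKM2fl/fl MI heart, which enters the shared spread, 1 (*Hp*). The sham response did not pass as different between the genotypes for any member with edgeR (0 of 9) or DESeq2 (0). With the limma interaction term, 0 of 9 passed, 0 had an unadjusted p under 0.05 and 0% of genes passed. Estimates of that difference ran from -0.56 for *Lcn2* to 0.99 for *Fkbp5* (standard error 0.67).

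To separate infarction from surgery, MI hearts were compared with sham hearts. Here the members parted: *Mt2*, *Saa3* and *Hp* rose (3 of 9, where 32.9% of genes rose), *Cp*, *Tsc22d3* and *Zbtb16* fell (3 of 9, where 32.7% fell), and *Mt1*, *Lcn2* and *Fkbp5* did not pass. Both counts are close to the share of all genes. Of those past the test, *Mt2*, *Saa3* and *Hp* rose and *Zbtb16* fell by at least 2-fold, as did 13.9% and 13.2% of genes. The median log2 fold change of the members was 0.12, beside 0.01 for all genes. Sham hearts are the controls of this comparison and the treated hearts of the last one, so the 2 sets of changes are not independent.

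**Figure D3:**
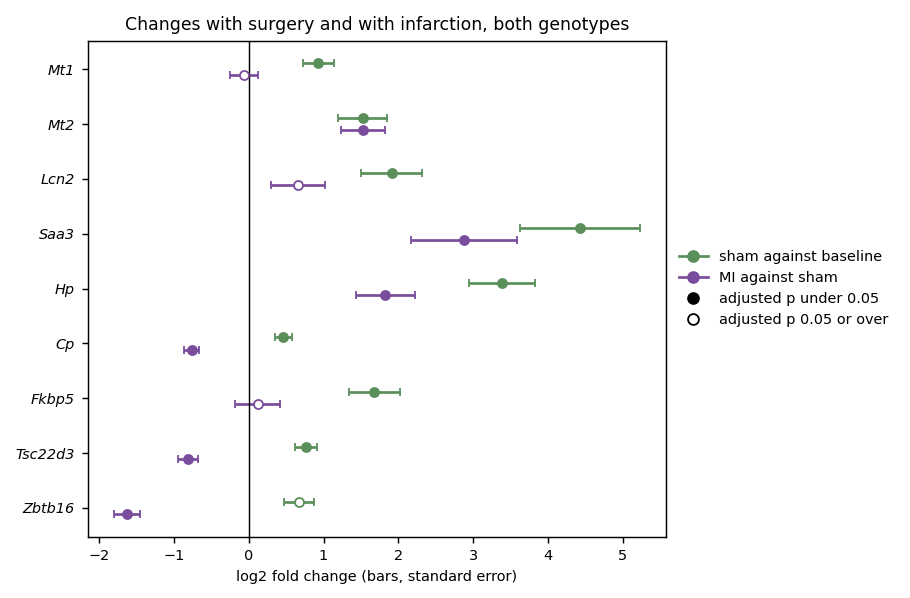
Log2 fold change of each gene over both genotypes (points, with bars of 1 standard error) for sham against baseline (green) and MI against sham (purple), filled where the adjusted p was under 0.05. All 9 estimates for sham surgery are above 0, from 0.46 to 4.43, whereas those for MI run from -1.63 to 2.88.

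*Mt2*, *Saa3* and *Hp* were higher after MI than after sham surgery. *Mt2* reached 1620.0, 729 and 1334 normalized counts in PKM2fl/fl and 3738, 2485 and 2962 in PKM2-/- MI hearts (2.88-fold over sham, log2 fold change 1.53, standard error 0.29, adjusted p = 0.000270). In PKM2-/- hearts all 3 MI values were above all sham values, as they were for *Lcn2*, *Saa3* and *Hp* and for 31.7% of genes, while in PKM2fl/fl hearts they overlapped. *Saa3* reached 162, 204 and 1552 in PKM2fl/fl and 482, 541 and 1933 in PKM2-/- hearts (7.35-fold, log2 fold change 2.88, standard error 0.71, adjusted p = 0.00233), with the third heart of either genotype far above the other two. *Hp* reached 458, 236 and 368 in PKM2fl/fl and 622, 577 and 1294 in PKM2-/- hearts (3.55-fold, log2 fold change 1.83, standard error 0.39, adjusted p = 0.000765). *Mt1* overlapped the sham range, at 2697, 1329.9 and 1751 in PKM2fl/fl and 4121, 2928 and 3229 in PKM2-/- hearts (log2 fold change -0.06, adjusted p = 0.781), and the sign of that small difference turned when libraries were scaled to their total reads. *Lcn2* had 436, 114 and 203 in PKM2fl/fl and 608, 333 and 456 in PKM2-/- hearts (log2 fold change 0.66, adjusted p = 0.125). *Fkbp5* had 1977, 1533 and 3550.3 in PKM2fl/fl and 7894, 6240.5 and 6095 in PKM2-/- hearts (log2 fold change 0.12, adjusted p = 0.742), with all 3 PKM2-/- hearts above the PKM2fl/fl ones. Cell markers moved in the same comparison, where 32.9% of all genes rose and 32.7% fell. For recruited monocytes and macrophages 8 of 8 rose (median log2 fold change 3.26), as did 4 of 7 tested for neutrophils (2.08). For mesothelium 4 of 6 rose, and for fibroblasts 3 of 5 rose and 1 fell. All 6 for cardiomyocytes fell (-1.76). Of 5 for resident macrophages, 2 rose and 2 fell, and of 4 each for endothelium and atrial muscle, 1 rose and 1 fell. The neutrophil sum was 256 to 1549 after sham surgery and 1495 to 5659.5 after MI, and the monocyte and macrophage sum 3949 to 7987 and 26689 to 46374. The part of these cell types in the changes of the members was not tested.

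*Zbtb16*, *Tsc22d3* and *Cp* fell. *Zbtb16* had 3416, 3543 and 3035 in PKM2fl/fl and 6450.4, 5656 and 5348 in PKM2-/- MI hearts, every one below every sham heart, and it was 3.09-fold lower (log2 fold change -1.63, standard error 0.18, adjusted p = 9.08e-07). *Cp* had 2184, 2109 and 1986 in PKM2fl/fl and 2849, 2397 and 2451 in PKM2-/- hearts, again with no overlap, and was 1.70-fold lower (log2 fold change -0.77, standard error 0.10, adjusted p = 5.66e-06). *Tsc22d3* had 1179, 1423 and 2008 in PKM2fl/fl and 2454, 2839 and 2722 in PKM2-/- hearts and was 1.76-fold lower (log2 fold change -0.81, standard error 0.13, adjusted p = 6.02e-05), with the PKM2-/- MI hearts reaching the lower end of the PKM2fl/fl sham range. All MI hearts lying below all sham hearts, as for *Cp* and *Zbtb16*, was found for 20.2% of genes. Of the 3 glucocorticoid targets 2 were lower after MI than after sham surgery, where 32.7% of all genes fell, and the other, *Fkbp5*, did not pass. All 6 cardiomyocyte markers fell in this comparison too (median log2 fold change -1.76), and their part in the falls of the members was not tested. In PKM2-/- hearts alone, the falls of *Cp* (-0.21, adjusted p = 0.599) and *Tsc22d3* (-0.11, adjusted p = 0.798) were lost under total count scaling, which raised the median gene of that comparison by 0.51.

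By genotype, 5 members passed in PKM2fl/fl hearts (*Saa3* and *Hp* higher, where 24.8% of genes rose, and *Cp*, *Tsc22d3* and *Zbtb16* lower, where 25.3% fell) and 6 in PKM2-/- hearts (the same 5 and *Mt2*, where 28.7% rose and 28.1% fell). In PKM2fl/fl hearts, *Saa3* and *Hp* both no longer passed without the first sham heart, the third sham heart or the third MI heart, which left 3 of 9. *Hp* also did not pass without the first MI heart (limma, 1.38, adjusted p = 0.0892). edgeR and DESeq2 called the same 3, but DESeq2 gave no adjusted p for *Saa3*. *Mt2* changed by 0.91 (adjusted p = 0.0796) in PKM2fl/fl and by 2.14 (adjusted p = 0.000394) in PKM2-/- hearts. The difference between those did not pass (limma interaction term 1.23, standard error 0.58, adjusted p = 0.602), nor did that of any other member. The count was 0 of 9 with limma and edgeR and 0 with DESeq2, where 0% of genes passed with limma. The single member with an unadjusted p under 0.05 was *Mt1* (interaction 0.88, standard error 0.38, adjusted p = 0.573).

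When the genotypes were compared at each stage, no member passed before MI. At baseline 0 of 9 passed, with 0 at an unadjusted p under 0.05 (0.00972% of genes were higher and 0% lower in PKM2-/- hearts). After sham surgery 0 of 9 passed, with 2 at an unadjusted p under 0.05, *Fkbp5* (1.06, standard error 0.43, adjusted p = 0.418) and *Tsc22d3* (0.45, standard error 0.19, adjusted p = 0.437), where 0.00486% of genes were higher and 0.00486% lower. edgeR also called 0 of 9 and DESeq2 called 0 at both stages. At each of these stages 8 of 9 estimates were higher in PKM2-/- hearts, with a median of 0.33 at baseline and 0.45 after sham surgery. At baseline both PKM2-/- hearts were above both PKM2fl/fl hearts for 4 members (*Mt2*, *Lcn2*, *Saa3* and *Cp*), as for 17.7% of genes. After sham surgery the genotypes were apart in that way for 0 members, where 8.27% of genes were. After MI all 9 estimates were higher in PKM2-/- hearts, from 0.29 for *Cp* to 1.60 for *Fkbp5*, with a median of 1.06 beside -0.00351 for all genes. *Tsc22d3* alone passed (1 of 9, log2 fold change 0.83, standard error 0.19, adjusted p = 0.0494), where 0.394% of genes were higher and 0.573% lower. That call stood at the threshold and was lost with edgeR (adjusted p = 0.056), with a pseudocount of 5 (adjusted p = 0.0504) and in 14 of the 16 fits that left out 1 library, and it held without the third PKM2-/- sham heart and without the third PKM2fl/fl MI heart, when *Fkbp5* passed as well.

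**Figure D4:**
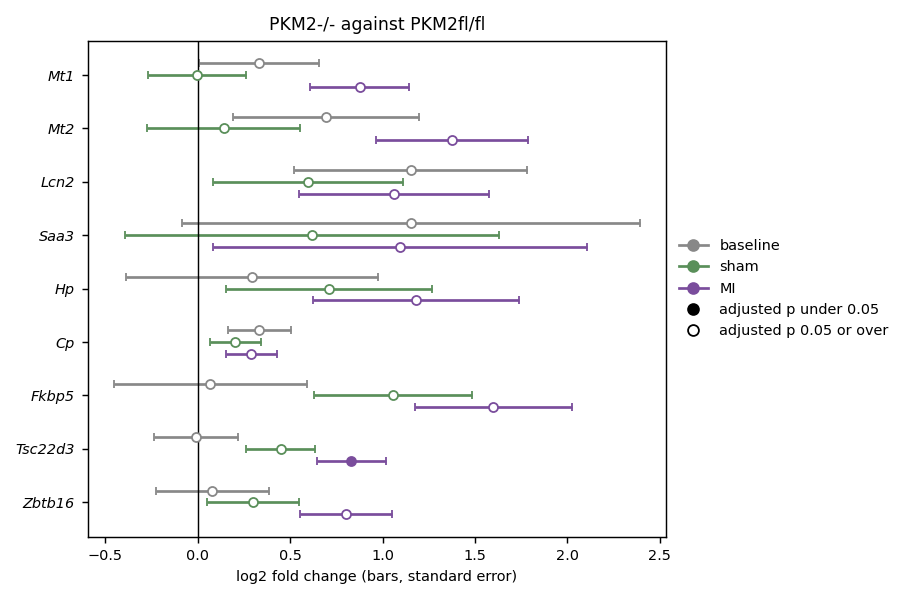
Log2 fold change of PKM2-/- against PKM2fl/fl hearts for each gene (points, bars of 1 standard error) at baseline (grey), after sham surgery (green) and after MI (purple), filled where the adjusted p was under 0.05. One point is filled, Tsc22d3 after MI at 0.83, and all 9 MI points are above 0.

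Of the 9, 7 members separated the genotypes after MI, in that all 3 PKM2-/- hearts were above all 3 PKM2fl/fl hearts (all but *Lcn2* and *Saa3*), as did 10.7% of genes. *Fkbp5* was the furthest apart, at 7894, 6240.5 and 6095 against 1977, 1533 and 3550.3, a 3.03-fold difference that did not pass (standard error 0.43, adjusted p = 0.0775). *Mt2* stood at 3738, 2485 and 2962 against 1620.0, 729 and 1334 (2.59-fold, adjusted p = 0.109) and *Mt1* at 4121, 2928 and 3229 against 2697, 1329.9 and 1751 (1.84-fold, adjusted p = 0.113). DESeq2 called 3 members (*Mt1*, *Tsc22d3* and *Zbtb16*), total count scaling, which raised the median gene of this comparison by 0.36, called 3 (*Mt1*, *Mt2* and *Fkbp5*) and edgeR called 0. Of the tested markers, 0 of 7 for neutrophils and 0 of 6 for cardiomyocytes passed between the genotypes after MI. The summed count of the 11 neutrophil markers was 4403 to 5659.5 in PKM2-/- and 1495 to 2741 in PKM2fl/fl MI hearts, and that of 6 cardiomyocyte markers was 225148 to 296632 and 239133 to 517354, so the genotypes overlapped in the second sum and not in the first. The part of these cells in the genotype differences was not tested.

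Neutrophil markers also moved with the sham response. Of the 11, 7 could be tested and 6 of these rose after sham surgery (beside 4.52% of all genes), with a median log2 fold change of 3.23. Their summed count was 108 to 230.2 at baseline and 1168 to 1549 in 5 of the 6 sham hearts. The exception was the third PKM2fl/fl sham heart, at 256, and the same heart had the lowest *Saa3* (12.7), *Hp* (42.2), *Lcn2* (68.1) and *Cp* (2995) of the sham group. It also had the lowest sums of that group for recruited monocytes and macrophages (3949), resident macrophages (2903) and fibroblasts (14490). The lowest *Mt1* (1900.2) and *Mt2* (359) of the sham group were in the first PKM2-/- sham heart, at a neutrophil sum of 1273. The defining surface marker *Ly6g* was at 0 in all 4 baseline libraries. It was below the filter, with 32 reads in all 16 libraries together and at most 9.65 normalized counts in any heart, so that 0 says little. Of 8 markers of recruited monocytes and macrophages, 6 rose (beside 4.52% of all genes). Their sum lay between 2716 and 3818 at baseline and between 3949 and 7987 after sham surgery. Of the 6 cardiomyocyte markers, 0 passed between sham and baseline, and all 6 fell in MI against sham (beside 32.7% of all genes). Among the other markers, 4 of 5 for resident macrophages, 2 of 5 for fibroblasts and 3 of 4 for atrial muscle rose after sham surgery (beside 4.52% of all genes). For mesothelium 0 of 6 and for erythroid cells 0 of 3 passed. Of 4 endothelial markers 1 rose and 1 fell, and the 1 adipocyte marker tested rose (log2 fold change 2.31), with the sum of the 4 adipocyte markers at 3.98 to 29.0 at baseline and 24.1 to 79.8 after sham surgery. The atrial markers summed to 1636 to 3629.5 at baseline and 2563 to 6987 after sham surgery. In bulk tissue, fewer cells of a type and less RNA per cell cannot be told apart, and the part of other cells and of atrial tissue in the changes of the members was not tested.

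**Figure D5:**
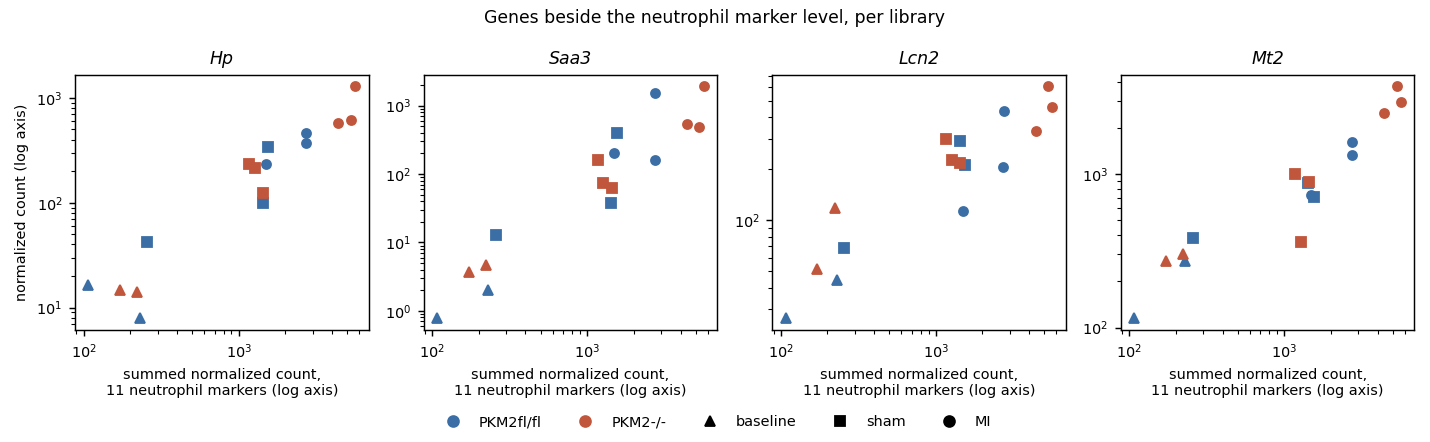
Normalized count of Hp, Saa3, Lcn2 and Mt2 against the summed normalized count of 11 neutrophil markers in each library (log axes), with colour for genotype and shape for treatment. The leftmost sham square of each panel, at a neutrophil sum of 256, is the third PKM2fl/fl sham heart, and the PKM2-/- MI hearts lie at 4403 and above.

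The defining liver markers were at or near 0. The 4 hepatocyte markers summed to 1.17 to 15.9 normalized counts in any heart, *Alb* reached at most 2.14 in any heart, and *Serpina1a* had 1 read in all. Of 20 other acute phase proteins listed, 8 passed the filter. The 12 that did not include the fibrinogen chains *Fga*, *Fgb* and *Fgg* (0 to 6 reads in all libraries together), *Crp*, *Apcs* and *Hpx*. Of the 8 tested, 6 rose and 0 fell after sham surgery, where 4.52% of all genes rose and 2.02% fell, with a median log2 fold change of 1.40 beside 0.02 for all genes. The complement component *C3* rose (1.65, adjusted p = 0.000321) from between 1919.9 and 2804 normalized counts at baseline to between 3800.2 and 9207 after sham surgery, the lipopolysaccharide-binding protein *Lbp* by 1.15 (adjusted p = 0.00177), and the serine protease inhibitor *Serpina3n* by 1.91 (adjusted p = 0.00226). In MI against sham, 5 of 8 rose and 3 fell, where 32.9% and 32.7% of all genes did. *Ptx3* rose (2.94, adjusted p = 1.12e-05), as did *Cd14* (1.77, adjusted p = 2.01e-05) and *Itih4* (1.91, adjusted p = 9.96e-08), while *C3* (-0.69, adjusted p = 0.00325) and *Lbp* (-0.43, adjusted p = 0.0292) fell. The fall of *Lbp* was lost under total count scaling (-0.26, adjusted p = 0.361) and with the rRNA covariate (limma, -0.32, adjusted p = 0.170). It was also lost in 6 of the 16 fits that left out 1 library.

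The cytokine signalling genes upstream of the acute phase changed in the same comparisons. Of 17, 9 rose (beside 4.52% of all genes) and 0 fell after sham surgery, with a median log2 fold change of 0.82, among them the C/EBP factors *Cebpd* (1.55, adjusted p = 8.01e-05) and *Cebpb* (1.17, adjusted p = 0.00163) and the oncostatin M receptor *Osmr* (0.83, adjusted p = 0.00155). *Cebpd* lay between 254 and 283 normalized counts at baseline and between 437 and 1243 after sham surgery, with no overlap. After MI, 13 of the 17 were higher and 1 lower than after sham surgery, beside 32.9% and 32.7% of all genes. The IL-1 receptor *Il1r1* (1.27, adjusted p = 1.94e-07), the NF-kB cofactor *Nfkbiz* (1.26, adjusted p = 2.01e-07) and the IL-6 family cytokine *Lif* (3.74, adjusted p = 2.91e-07) rose, *Lif* from between 3.22 and 10.3 to between 51.4 and 141. *Cebpd* itself did not pass in MI against sham (0.07, adjusted p = 0.698).

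Other genes induced by glucocorticoids rose in part after sham surgery. Of 13, 5 rose (beside 4.52% of all genes) and 0 fell, with a median log2 fold change of 0.45. They included the mTORC1 inhibitor *Ddit4* (1.70, adjusted p = 0.000830), the cell cycle inhibitor *Cdkn1a* (1.71, adjusted p = 0.00287) and the EGF receptor inhibitor *Errfi1* (0.92, adjusted p = 0.00639), each of which other stress signals also induce. *Klf15* (0.43, adjusted p = 0.210), *Lpin1* (0.45, adjusted p = 0.201) and *Klf9* (0.14, adjusted p = 0.586) did not pass. In MI against sham, 7 of the 13 fell, beside 32.7% of all genes, and 2 rose, beside 32.9%. *Klf15* fell from between 1440.2 and 2639 to between 249 and 497 normalized counts (-2.34, adjusted p = 1.58e-08), *Lpin1* changed by -1.90 (adjusted p = 1.66e-07) and *Klf9* by -1.09 (adjusted p = 2.72e-07).

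Of 8 genes of the receptor machinery, 1 rose and 2 fell after sham surgery, where 4.52% of all genes rose and 2.02% fell. *Nr3c1*, the glucocorticoid receptor, fell (-0.35, adjusted p = 0.0199), from between 3614 and 4460.4 to between 2757 and 3466, and *Nr3c2*, the mineralocorticoid receptor, fell (-0.67, adjusted p = 0.0370), while the chaperone *Hsp90aa1* rose (0.65, adjusted p = 0.00830). In MI against sham, 4 of 8 fell and 1 rose (all genes, 32.7% and 32.9%). *Nr3c2* fell again (-1.83, adjusted p = 1.12e-07), as did the co-chaperone *Fkbp4* (-1.75, adjusted p = 1.45e-07) and *Hsd11b1*, which regenerates active glucocorticoid (-1.23, adjusted p = 3.46e-06). *Nr3c1* did not pass there (-0.12, adjusted p = 0.159). The changes after sham surgery of *Nr3c1* (-0.27, adjusted p = 1.00), *Nr3c2* (-0.59, adjusted p = 0.367) and *Hsp90aa1* (0.73, adjusted p = 0.0871) did not pass under total count scaling. The fall of *Nr3c2* was also lost without a filter (limma, adjusted p = 0.0601) and without any 1 of the PKM2-/- sham hearts (0.0576 to 0.0676).

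Some genes of metal handling rose after sham surgery. Of 27 listed, 22 were tested, 5 rose (beside 4.52% of all genes) and 0 fell, with a median log2 fold change of 0.15. The scavenger receptor *Cd163*, which takes up haptoglobin bound to haemoglobin, rose (0.88, adjusted p = 0.00318), as did the copper transporter *Slc31a2* (0.50, adjusted p = 0.00447) and transferrin, *Trf* (0.81, adjusted p = 0.0185). In MI against sham, 9 of 22 rose, a share near the 32.9% of all genes, and 3 fell, where 32.7% of all genes did. *Hmox1*, which breaks down haem, rose from between 139.7 and 416 to between 3985 and 6829 (4.52, adjusted p = 3.06e-10), the ferritin light chain *Ftl1* rose (1.99, adjusted p = 6.40e-09), and the copper pump *Atp7a* rose (0.96, adjusted p = 1.36e-05). *Cd163* fell (-0.36, adjusted p = 0.0298). Under total count scaling, *Slc31a2* after sham surgery (0.58, adjusted p = 0.279) and *Cd163* after MI (-0.19, adjusted p = 0.484) no longer passed. The fall of *Cd163* was also lost with the rRNA covariate (limma, -0.33, adjusted p = 0.105) and in 8 of the 16 fits that left out 1 library.

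The genes most like each member over the 16 libraries, by Pearson r of log2 values, are given here. The correlations are a description over libraries of 6 groups, so shared responses of the groups enter them. *Saa3* was most like *Hp* (r = 0.961), *Slpi* (0.960) and *Rhou* (0.952), and *Hp* was most like *Rhou* (0.978), *Slfn4* (0.969) and *Clec4e* (0.967). *Lcn2* was most like *Serpina3n* (0.966), *S100a9* (0.952) and *Serpina3m* (0.943). *Mt1* was most like *Uap1* (0.906), *Ninj1* (0.877) and *Retnlg* (0.873), and *Mt2*, after *Gm45774*, like *Nfe2* (0.955) and *Mirt2* (0.952). *S100a9* and *Retnlg* are among the 11 neutrophil markers. *Zbtb16* was most like *Adipor2* (0.966), *Anapc16* (0.957) and *Rgcc* (0.948), and *Cp* like *Max* (0.963), *Timp3* (0.953) and *Syn3* (0.950), all of which had lower estimates after MI than after sham surgery. *Tsc22d3* was most like *Arhgef37* (0.926), *Gm26759* (0.924) and *Fam117b* (0.914). *Fkbp5* was most like *Hipk1* (0.974), *Klhl2* (0.962) and *Gm15886* (0.957).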

How the data were processed

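RNA was sequenced as paired-end, rRNA-depleted libraries of 16 left ventricles with a kit that does not mark strand. The authors used PRINSEQ for trimming, HISAT2 for alignment to mm10 and featureCounts for counting, and deposited a signal, the read count divided by the DESeq2 size factor of the library. Versions, annotation and strand setting of the counting are not given in the sources used here. The remaining deposited columns hold the mean over libraries and the authors' own comparison of the baseline groups (log2 fold change, its error, test statistic and p-values), and were not used. There were 0 columns of samples outside the series. Every value was a whole multiple of the value of 1 read (100% of values, within 0.1), so reads could be recovered.

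Groups came from the sample labels. limma 3.58.1 (R 4.3.3), with a trend in the variance, was fitted to log2(value + 1) of all 16 libraries in 6 groups, for genes with a mean of at least 10, so fold changes of low genes are understated. An edgeR test had been planned for counts, and limma was used because the values are normalized. Genes passed at an adjusted p under 0.05 (Benjamini-Hochberg). Alternatives were TMM and total count scaling, edgeR 4.0.16 and DESeq2 1.42.0 on recovered reads, no filter, pseudocounts of 0.1 and 5, fits of the compared groups alone, the rRNA locus as a covariate, a replicate block and each library left out. The models were run on simulated reads with known changes in sham hearts only. That run did not cover the other comparisons, and its results are not reported here. The members and lists were chosen with earlier results of these data known. From each list, at most 3 genes with the smallest p in each of 2 comparisons (sham against baseline and MI against sham) were named, and for each member the 3 genes with the highest correlation. Positions and start windows are from RefSeq (GRCm38.p6), and exon overlaps from GENCODE M39, as lengths. p-values rest on separate mice, in groups of 2 or 3, and depth leaves *Saa3* at baseline at 1 to 4 reads per library.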

Additional observations from a re-analysis of the deposited data

How the results depend on the processing

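In sham against baseline over both genotypes, all 9 members kept a higher estimate in every alternative run, and 7 to 9 passed in each alternative that kept all libraries. DESeq2 gave no adjusted p for *Saa3*. Leaving out 1 library gave 3 to 9 members there, 0 to 5 in PKM2fl/fl hearts alone and 1 to 4 in PKM2-/- hearts alone, where 1 (*Hp*) passed when either baseline heart was left out. In PKM2fl/fl hearts, TMM scaling called 1 member and total count scaling and DESeq2 called 4 each, beside 0. For MI against sham, leaving out 1 library gave 6 to 7 members over both genotypes, 3 to 6 in PKM2fl/fl and 5 to 6 in PKM2-/- hearts, and in PKM2fl/fl hearts edgeR, DESeq2 and the fit of the compared groups alone each called 3. For the genotypes after MI, leaving out 1 library gave 0 to 2 members, total count scaling and DESeq2 gave 3 each, and edgeR, no filter, pseudocounts of 0.1 and 5, the compared groups alone, the rRNA covariate and the replicate block gave 0. For the genotype difference in the MI response, total count scaling gave 1 (*Mt2*). The cause of these shifts was not tested.

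Small differences that did not pass changed sign. *Mt1* in MI against sham was 0.10 under total count scaling and -0.20 to 0.054 with 1 library left out. With 1 library left out, *Fkbp5* ran -0.069 to 0.32 over both genotypes and -0.49 to 0.19 in PKM2fl/fl hearts, *Lcn2* ran -0.19 to 0.88 in PKM2fl/fl hearts, all in MI against sham, and *Zbtb16* in sham against baseline ran -0.036 to 1.16 in PKM2fl/fl hearts, the lowest without the first baseline heart. Among the other genes named, *Nr3c1* in MI against sham was 0.043 under total count scaling and *Cebpd* ran -0.056 to 0.20 with 1 library left out. Total count scaling moved the median of all genes by 0.21 (sham against baseline) and 0.51 (MI against sham) in PKM2-/- hearts, by 0.17 over both genotypes and -0.17 in PKM2fl/fl hearts in MI against sham, by -0.59, -0.32 and 0.36 between the genotypes at baseline, after sham surgery and after MI, and by 0.26 and 0.68 for the genotype difference in the sham and the MI response. It also raised the share of higher genes among those past the test in sham against baseline over both genotypes from 69.1% to 94.9% and in MI against sham from 50.2% to 61.5%.

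Same-numbered libraries of different groups did not deviate together (36 pairs, correlations from -0.20 to 0.13, median -0.03), so replicate numbers were not taken to pair mice. With a replicate block, 9 members passed in sham against baseline, with *Zbtb16* added (0.77, adjusted p = 0.0343), 3 in PKM2-/- hearts alone and 6 in MI against sham, and *Nr3c2* (-0.62, adjusted p = 0.0934) and *Trf* (0.75, adjusted p = 0.0525) no longer passed after sham surgery. With 2 baseline hearts per genotype, differences within a genotype are poorly bounded.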
